A study of Mus musculus with 16 samples.

Results

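The canonical Wnt ligand genes taken here were Wnt1, Wnt2, Wnt2b, Wnt3, Wnt3a, Wnt8a, Wnt8b, Wnt10a and Wnt10b, which are 9 of the 25755 mouse gene symbols with a curated RefSeq transcript. They were chosen by name, and the peaks described are those within 2500 bp of their start sites and those over their bodies in GRCm38. The cells were R1 mouse embryonic stem cells (ESCs) carrying MycER, which is Myc joined to the hormone-binding part of the estrogen receptor. The activity of MycER depends on 4-hydroxytamoxifen (OHT). In the cells that the paper names MycER, the Myc part is a phosphorylation-site mutant, and for a further clone the paper states no mutation. LIF-ESCs received LIF at 100 units per ml and no OHT, and Myc-ESCs received OHT at 50 nM and no LIF. Both cultures carried the transgene, so they differed in LIF and in active MycER together, and the effects of these cannot be told apart. The labels do not say which MycER clone was used for these libraries. H3K4me3, H3K27me3 and Suz12 were mapped by ChIP-sequencing, in which DNA bound by an antibody is recovered and sequenced, and stretches rich in reads are listed as peaks. There were 16 libraries by the labels, of which 4 were inputs and 2 stood behind each of the 6 deposited lists (3 antibodies in each culture).

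Wnt ligands are secreted, lipid-modified glycoproteins. Canonical ligands bind a Frizzled receptor with the co-receptor Lrp5 or Lrp6, and this stabilises β-catenin, which then acts in the nucleus with Tcf/Lef factors. In ESCs this pathway is known to favour self-renewal, and many developmental ligand genes are held silent there by Polycomb. Suz12 is a core subunit of the Polycomb complex PRC2, which places the methyl groups of H3K27me3. H3K4me3 marks active and poised start sites, and a start site with H3K4me3 and H3K27me3 together is called bivalent.

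The 6 lists held 30345 to 32469 H3K4me3 peaks, 11305 and 13907 Suz12 peaks in LIF-ESCs and Myc-ESCs, and 3120 and 16717 H3K27me3 peaks in the same order. H3K27me3 peaks were short, with medians of 157 and 162 bp in LIF-ESCs and Myc-ESCs, against 2316 and 2623 bp for H3K4me3. The depth behind each list is unknown and there was 1 list for each culture and antibody, so no difference below could be set against replicate error and no test was run. The labelled cell type was checked with H3K4me3 at the start sites of 8 ESC genes, including Pou5f1, Sox2 and Nanog, and all 8 carried it in both cultures. None of 5 genes of other tissues (Alb, Cd3e, Myh6, Ins2 and Krt5) had a peak of any list at its start site.

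Promoter sequence from RefSeq (GRCm38.p6, 250 bases before to 50 after the start site) was found for 7 of the 9 genes, all except Wnt8a and Wnt10a. The ratio of observed to expected CpG dinucleotides was 0.903 in Wnt2b, 0.863 in Wnt3a, 0.837 in Wnt2, 0.744 in Wnt3, 0.699 in Wnt1 and 0.559 in Wnt10b. These 6 promoters lay above the median of 0.384 over 32851 promoters, whereas Wnt8b, at 0.345, lay below it. The GC box, searched as GGGCGG on both strands, occurred 9 times in Wnt3a, 4 times in Wnt2b, 2 times each in Wnt2 and Wnt3 and once in Wnt1, and 35.7% of all promoters held it. A Tcf/Lef match (CTTTGAT or CTTTGTT, both strands) was found only in Wnt3, starting 19 bases into the transcript, and 9.33% of all promoters held one. The E-box CACGTG, the motif of Myc and its partner Max, was found in 0 of the 7, against 7.15% of all promoters. Matches of 1 motif may overlap each other, and a match or its absence describes only this window.

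The 250 bases before 4 start sites are printed with CpG dinucleotides in capitals. These genes span the range from a CpG-dense promoter with Suz12 within 2500 bp to a CpG-poor promoter without any mark. The printed bases need not lie under a peak themselves. At Wnt3a the main Suz12 peak began 97 bp downstream of the start site in LIF-ESCs and 7 bp upstream in Myc-ESCs. Wnt3a lies at chr11:59290752-59291001 on the minus strand, and Wnt1 at chr15:98789607-98789856 on the plus strand. Wnt10b lies at chr15:98778151-98778400 on the minus strand, and Wnt8b at chr19:44493222-44493471 on the plus strand. They hold 41, 23, 14 and 5 CpG dinucleotides in this order.
Wnt3a: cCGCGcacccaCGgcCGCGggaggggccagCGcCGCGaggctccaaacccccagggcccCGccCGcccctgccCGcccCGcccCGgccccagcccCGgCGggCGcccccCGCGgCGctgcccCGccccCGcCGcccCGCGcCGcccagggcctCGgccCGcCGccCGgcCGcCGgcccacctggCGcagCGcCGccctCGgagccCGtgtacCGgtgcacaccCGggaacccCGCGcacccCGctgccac
Wnt1: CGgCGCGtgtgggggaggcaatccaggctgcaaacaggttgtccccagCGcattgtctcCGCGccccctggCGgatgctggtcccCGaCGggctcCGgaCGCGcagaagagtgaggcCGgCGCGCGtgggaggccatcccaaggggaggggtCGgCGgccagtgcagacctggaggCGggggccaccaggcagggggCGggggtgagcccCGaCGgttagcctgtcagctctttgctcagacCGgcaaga
Wnt10b: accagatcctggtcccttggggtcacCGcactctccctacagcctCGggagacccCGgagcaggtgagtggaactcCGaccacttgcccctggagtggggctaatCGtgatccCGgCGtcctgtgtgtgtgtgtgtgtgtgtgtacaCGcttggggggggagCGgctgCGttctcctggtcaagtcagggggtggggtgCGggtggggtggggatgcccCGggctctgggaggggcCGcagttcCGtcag
Wnt8b: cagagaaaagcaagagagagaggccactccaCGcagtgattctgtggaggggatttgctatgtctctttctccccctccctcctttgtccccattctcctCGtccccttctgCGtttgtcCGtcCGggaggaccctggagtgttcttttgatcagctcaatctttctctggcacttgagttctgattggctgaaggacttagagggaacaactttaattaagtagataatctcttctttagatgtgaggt

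At the start sites, H3K4me3 was found on 6 of the 9 genes in LIF-ESCs, where 62.7% of all genes carried it, and on 8 of 9 in Myc-ESCs (63.9% of all genes). H3K27me3 was found on 4 of 9 in LIF-ESCs (3.84% of all genes) and on 7 of 9 in Myc-ESCs (10.8%). Suz12 was found on 7 of 9 in both cultures, against 12.2% (LIF-ESCs) and 14.7% (Myc-ESCs) of all genes. The ligand genes were therefore close to all genes for H3K4me3 in LIF-ESCs and stood well above the share of all genes for Suz12 and H3K27me3 in both cultures. The same 7 genes held Suz12 in both cultures and H3K27me3 in Myc-ESCs, namely all but Wnt8a and Wnt8b. The plot of shares by gene list shows these values beside those of other Wnt pathway genes.

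**Figure D1:**
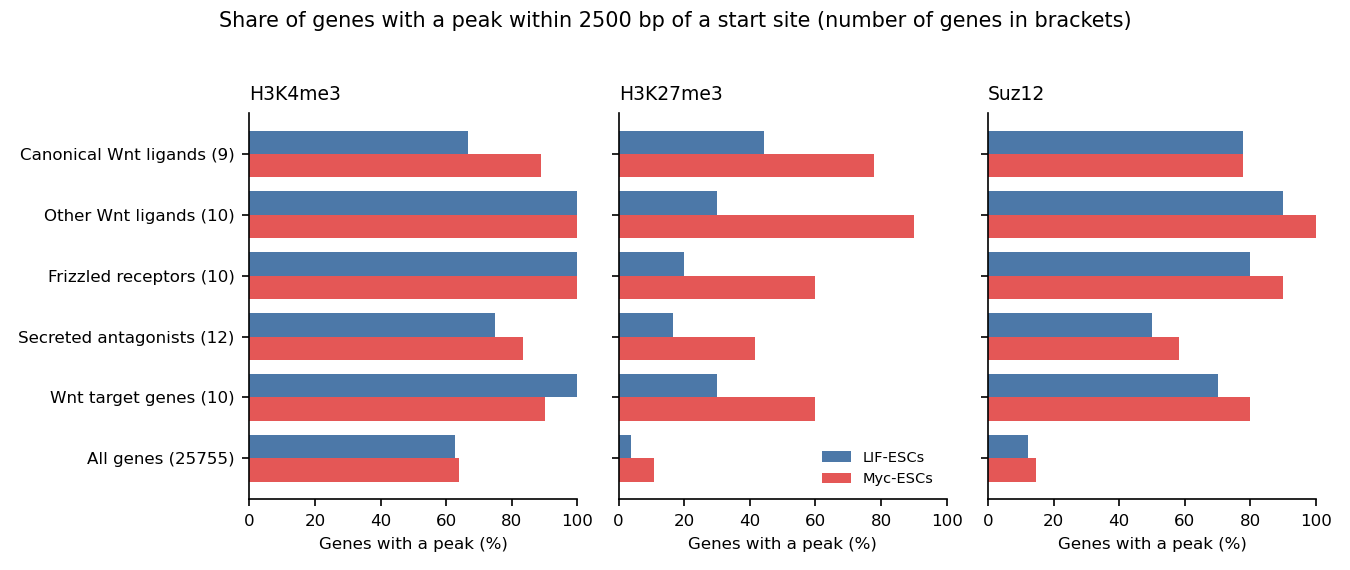
Share of genes (percent, horizontal axis) with a peak within 2500 bp of a start site, by antibody (panels) and culture (blue LIF-ESCs, red Myc-ESCs), for 5 lists of Wnt pathway genes and all genes. Canonical Wnt ligands reached 77.8% for Suz12 in both cultures, and stood at 44.4% (LIF-ESCs) and 77.8% (Myc-ESCs) for H3K27me3.

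Every start-site call that differed between the cultures was a peak found in Myc-ESCs. H3K4me3 was found in Myc-ESCs only at Wnt1 and Wnt10b, 2 of 9 genes (2.36% of all genes), and in LIF-ESCs only at 0 (1.2%). H3K27me3 was found in Myc-ESCs only at Wnt2, Wnt3a and Wnt10a, 3 of 9 (7.69%), and in LIF-ESCs only at 0 (0.738%). For Suz12 both counts were 0, against 3.83% of all genes for Myc-ESCs alone and 1.29% for LIF-ESCs alone. All 3 marks lay together at Wnt2b and Wnt3 in LIF-ESCs, 2 of 9 (2.8% of all genes), and at the 7 Suz12-marked genes in Myc-ESCs (8.94%). Of the 3 ligand genes with Suz12 but no H3K27me3 in LIF-ESCs, 3 had H3K27me3 in Myc-ESCs, as did 58.1% of the 2314 genes that began in this state.

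The H3K27me3 difference depended on the length of the lists. When only the 3120 top-scoring Myc-ESC peaks were kept, to equal the LIF-ESC list, H3K27me3 was left in Myc-ESCs at Wnt1 and Wnt3a alone, so that 2 genes stood against 4 in LIF-ESCs. Under the same limit it was found in Myc-ESCs only at Wnt3a and in LIF-ESCs only at Wnt2b, Wnt3 and Wnt10b. Over all genes the share under this limit was 3.84% in LIF-ESCs, and in Myc-ESCs it was 3.56%. All 3 marks together were then at 2 genes in each culture (2.74% of all genes in LIF-ESCs, and 3.19% for Myc-ESCs). The part of depth in the longer Myc-ESC list was not tested.

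The number of bases covered by peaks within the 5001 bp around each start site gave a finer measure than presence. H3K4me3 covered more bases in Myc-ESCs at 8 of the 8 genes that carried it in either culture (65.0% of all marked genes). Suz12 did so at 7 of 7 (79.2%), and H3K27me3 at 5 of 7 (90.7%). Summed over the 9 genes in LIF-ESCs and Myc-ESCs, H3K4me3 covered 13188 and 23649 bases, Suz12 14084 and 21929, and H3K27me3 858 and 3482. With lists of equal length the Suz12 count was again 7, while the H3K27me3 count was 2, and the summed H3K27me3 bases were 858 and 1383. Suz12 coverage of the marked ligand genes had a median of 2187 bases in LIF-ESCs and 3294 in Myc-ESCs, against 974 and 1350 bases over all Suz12-marked genes. H3K4me3 showed the opposite order, with medians of 2148.5 and 3068 bases at the ligand genes against 3376 and 3520 over all marked genes. These medians do not rest on like windows. Each ligand gene had a single window of 5001 bp, whereas genes with several start sites had merged windows that can be longer.

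**Figure D2:**
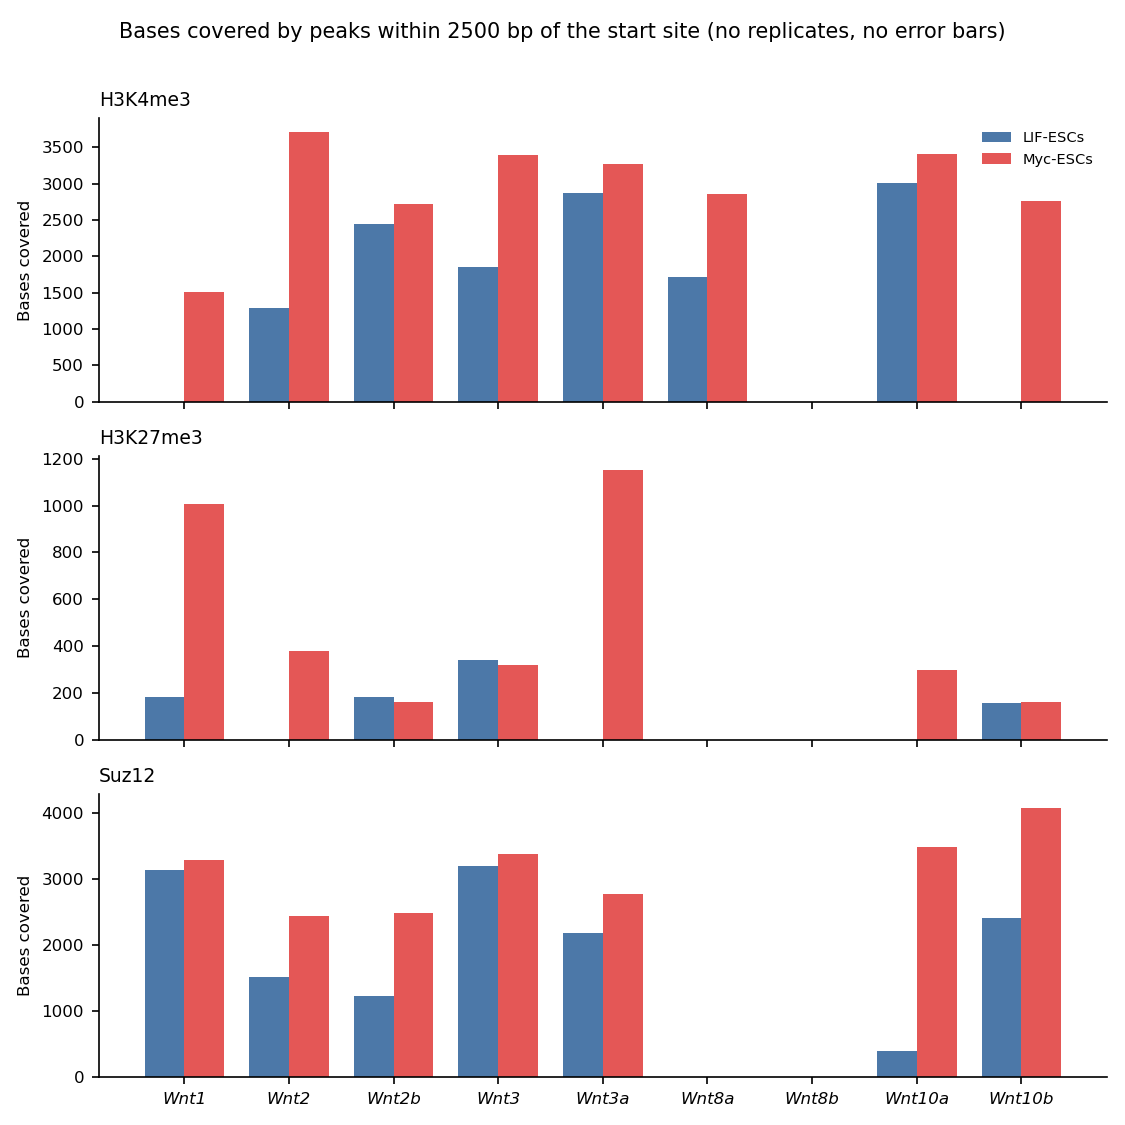
Bases covered by peaks within 2500 bp of the start site (vertical axes, bases of 5001, each panel on its own scale) for each ligand gene, with blue bars for LIF-ESCs and red bars for Myc-ESCs, and no error bars because there was 1 list for each culture and antibody. The red bar is the taller one at every gene with H3K4me3 or Suz12, while for H3K27me3 it is slightly shorter at Wnt2b (180 and 162 bases) and Wnt3 (340 and 320 bases).

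Wnt1, a ligand needed for midbrain formation, and Wnt10b, which acts in skin and bone, are divergent neighbours on chromosome 15, with start sites 11707 bp apart (Wnt1 at chr15:98789857-98793830, plus strand, and Wnt10b at chr15:98770712-98778206, minus strand). They shared a state of the 6 lists that was found at only 48 of all genes (0.186%): H3K27me3 and Suz12 in both cultures, and H3K4me3 in Myc-ESCs only. At Wnt1, H3K4me3 covered 0 bases at the start site in LIF-ESCs, where the nearest peak lay 14778 bp away, and 1512 bases in Myc-ESCs. The Myc-ESC peak did not reach the start site itself but ran from 989 to 4111 bp downstream of it, from intron 1 across exons 2 to 4, with a score below that of most of its list (25.5% scored lower). At Wnt10b, the Myc-ESC H3K4me3 peak covered 2769 bases from 547 bp upstream to 2221 bp downstream, and 20.1% of its list scored lower. A second H3K4me3 peak over exon 5 of Wnt10b was present in both cultures, at 4500 to 6616 bp downstream in LIF-ESCs and 4257 to 6709 bp in Myc-ESCs. Both start-site peaks of Myc-ESCs were thus among the weaker ones of their list.

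Suz12 was strong at both genes. In LIF-ESCs and Myc-ESCs it covered 3137 and 3294 bases at the Wnt1 start site, and 2410 and 4080 bases at Wnt10b. The main Suz12 peak ranked above 97.2% and 96.1% of its list at Wnt1, and above 94.6% and 96.1% at Wnt10b, in LIF-ESCs and Myc-ESCs. Both Myc-ESC peaks carried a score of 3100.0, which 522 peaks of that list shared, so the score could not order the strongest peaks. Between the start sites, Suz12 covered 9.89% of the 11708 bp in LIF-ESCs with 4 peaks and 24.2% in Myc-ESCs with 9 peaks. When Suz12 peaks at most 5000 bp apart were joined, the Wnt1 domain spanned 4299 bp in LIF-ESCs, while in Myc-ESCs it spanned 20356 bp and also took in the start site of Ddn.

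H3K27me3 at Wnt1 was a single peak of 181 bp in intron 1 in LIF-ESCs (score 58.1) and 3 peaks covering 1007 bases at the start site in Myc-ESCs. The largest Myc-ESC peak, 631 bp from 270 to 900 bp downstream, contained the LIF-ESC peak whole and ranked above 96.4% of its list. At Wnt10b the H3K27me3 bases were alike, 157 in LIF-ESCs and 161 in Myc-ESCs, although the peaks did not overlap. The Myc-ESC list added 4 peaks further along Wnt10b, from intron 3 to past the end of exon 5. One of these began 2496 bp downstream and so entered the window by its first 5 bases, while the H3K27me3 peak of Wnt8a nearest to its window began 2685 bp downstream and stayed outside.

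Of the H3K27me3 peaks, 7 that lay outside exons are printed, with CpG dinucleotides in capitals, to set the sequence under this mark beside the promoters above. They do not stand for all such peaks, since 1 of 9 LIF-ESC peaks and 13 of 54 Myc-ESC peaks touched an exon, and at the 7 genes other than Wnt8a and Wnt10a the CpG ratio of single Myc-ESC peaks ranged from 0.0 to 1.05, the latter in exon 4 of Wnt1. The Wnt1 peak of LIF-ESCs (chr15:98790542-98790722, plus strand, intron 1) held 2 CpG and an uninterrupted run of 28 A, and the Wnt10b peak of Myc-ESCs (chr15:98777637-98777792, minus strand, intron 1) held 4. Of Wnt2b, the LIF-ESC peak (chr3:104961095-104961274, minus strand, intron 1) held 3 and the Myc-ESC peak (chr3:104962849-104963010, minus strand, upstream) held 2. The Wnt3a peak of Myc-ESCs (chr11:59288497-59288762, minus strand, intron 1) held 5. Of Wnt8b, the LIF-ESC peak (chr19:44504443-44504582, plus strand, intron 1) held 0, with 63.6% of its bases repeat-masked, and the Myc-ESC peak (chr19:44508849-44508979, plus strand, intron 2) held 1.
Wnt1, LIF-ESCs: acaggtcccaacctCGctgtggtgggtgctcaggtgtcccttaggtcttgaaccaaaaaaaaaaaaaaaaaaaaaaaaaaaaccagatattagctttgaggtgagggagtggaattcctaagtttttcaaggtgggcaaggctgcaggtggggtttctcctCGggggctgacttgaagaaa
Wnt10b, Myc-ESCs: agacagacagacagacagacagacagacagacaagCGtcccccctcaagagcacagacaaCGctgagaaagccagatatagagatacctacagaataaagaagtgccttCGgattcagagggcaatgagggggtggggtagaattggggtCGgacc
Wnt2b, LIF-ESCs: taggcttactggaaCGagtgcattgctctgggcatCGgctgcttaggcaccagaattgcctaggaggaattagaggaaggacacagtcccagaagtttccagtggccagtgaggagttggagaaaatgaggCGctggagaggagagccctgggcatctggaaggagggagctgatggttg
Wnt2b, Myc-ESCs: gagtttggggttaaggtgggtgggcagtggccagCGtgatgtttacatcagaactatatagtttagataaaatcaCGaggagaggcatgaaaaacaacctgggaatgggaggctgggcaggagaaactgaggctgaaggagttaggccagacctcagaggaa
Wnt3a, Myc-ESCs: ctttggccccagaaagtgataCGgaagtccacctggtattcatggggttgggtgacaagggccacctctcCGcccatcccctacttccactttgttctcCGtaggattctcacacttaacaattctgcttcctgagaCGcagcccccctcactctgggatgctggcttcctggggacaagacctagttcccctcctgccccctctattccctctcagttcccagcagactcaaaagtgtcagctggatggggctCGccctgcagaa
Wnt8b, LIF-ESCs: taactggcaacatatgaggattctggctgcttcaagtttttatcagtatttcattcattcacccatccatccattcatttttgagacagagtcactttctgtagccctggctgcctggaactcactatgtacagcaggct
Wnt8b, Myc-ESCs: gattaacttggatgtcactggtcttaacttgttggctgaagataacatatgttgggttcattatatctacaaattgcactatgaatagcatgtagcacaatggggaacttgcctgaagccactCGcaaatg

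Over the 7 genes other than Wnt8a and Wnt10a, the 44 Myc-ESC H3K27me3 peaks had a median CpG ratio of 0.244 (0.214 over the whole list), and the 37 Suz12 peaks one of 0.447 (0.477 over the whole list). Of these H3K27me3 peaks, 2 were more than 50% repeat-masked, both in Wnt10b, whereas 16.3% of the whole list were. H3K27me3 and Suz12 peaks often lay on top of each other. Of 54 Myc-ESC H3K27me3 peaks at the start sites or over the bodies of all 9 genes, 39 (72.2%) overlapped a Myc-ESC Suz12 peak, against 48.0% of all 16717 peaks, and 50 lay within 1000 bp of one (92.6%, against 69.1%). In LIF-ESCs, 7 of 9 overlapped Suz12 (77.8%, against 46.2% of the list). The whole-list shares cover peaks anywhere in the genome. The peaks counted here lay at 9 genes, of which 7 carried Suz12 at the start site, so the 2 shares are not of like regions. Of the 54 Myc-ESC peaks, 3 overlapped a LIF-ESC H3K27me3 peak (5.56%, against 8.95% of all Myc-ESC peaks), and of the 9 LIF-ESC peaks, 4 overlapped a Myc-ESC peak (44.4%, against 51.6%). The first share is bounded by the shorter LIF-ESC list. The 54 peaks came from 9 genes of 1 list and are not independent of each other.

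**Figure D3:**
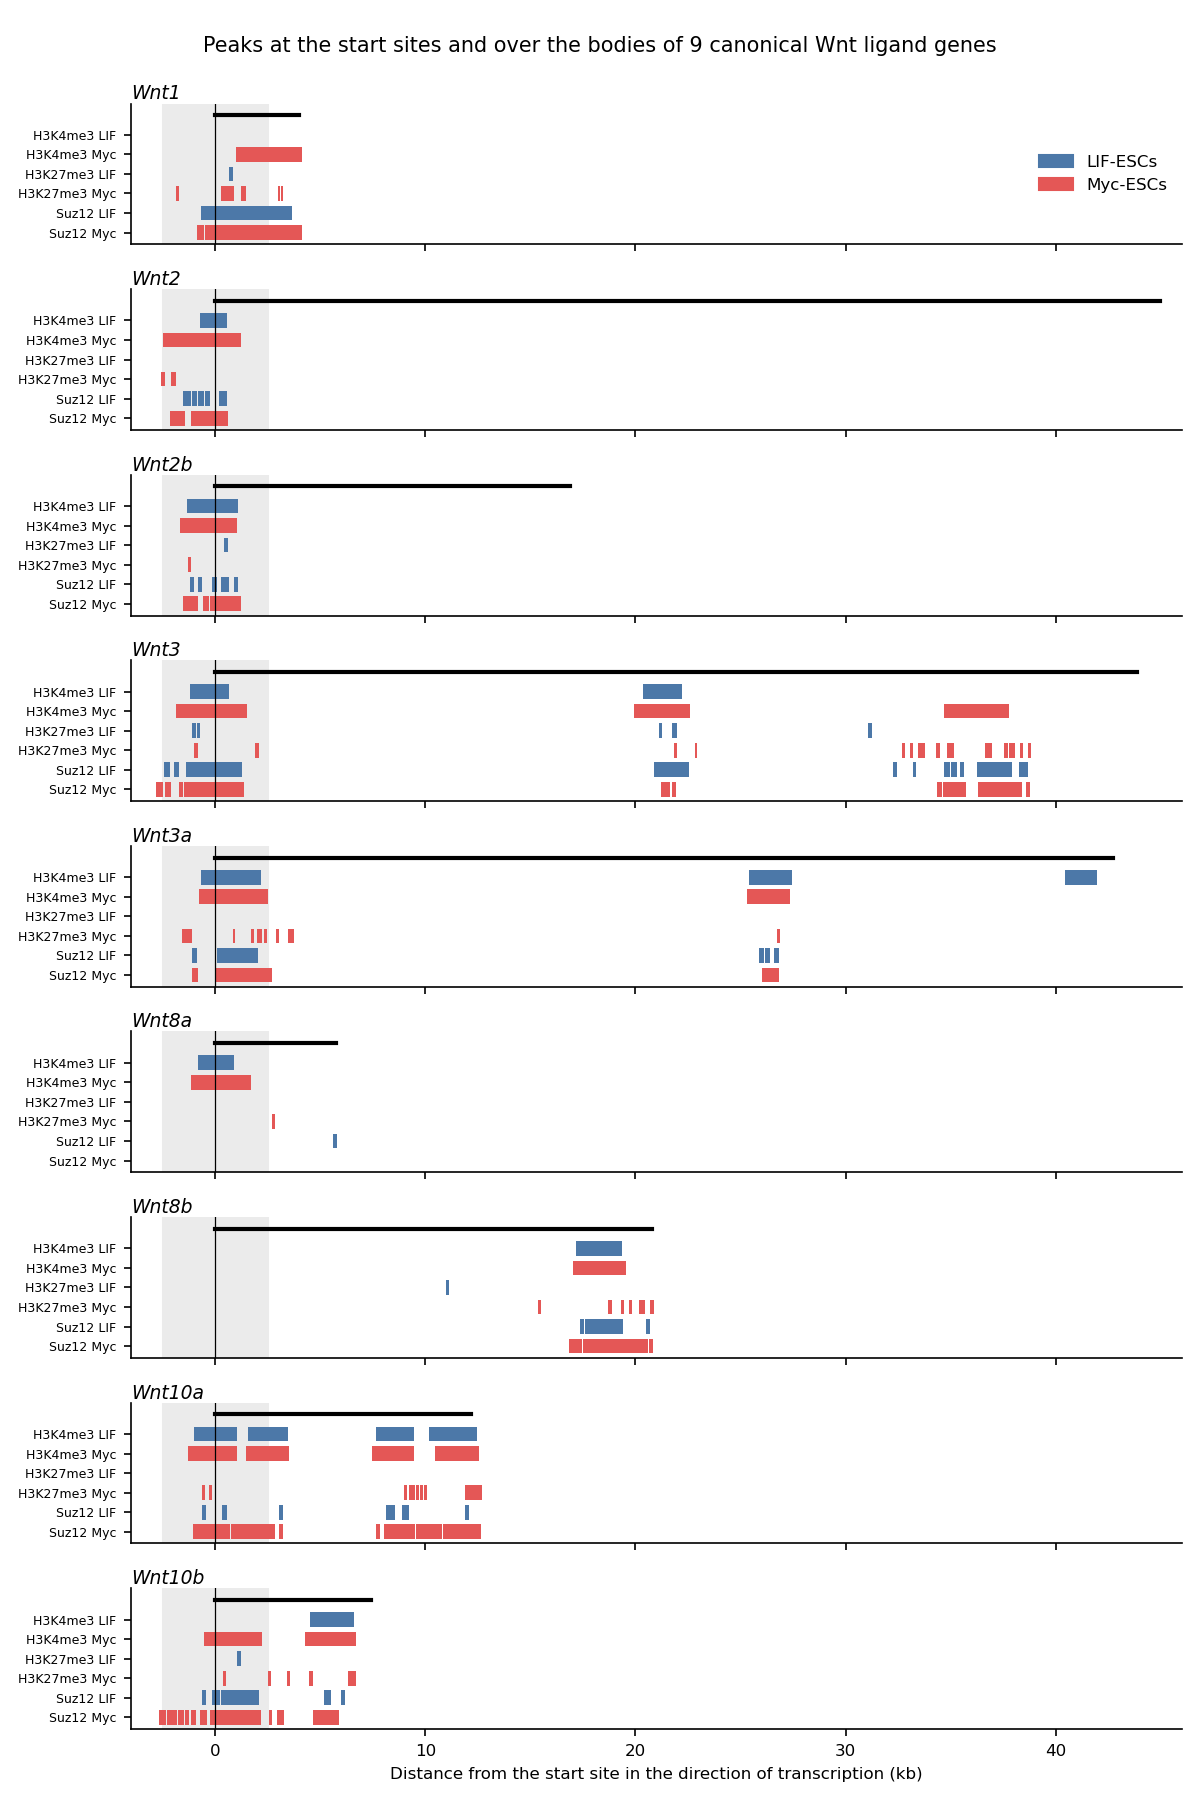
Peaks of the 6 lists (rows, blue for LIF-ESCs and red for Myc-ESCs) at each ligand gene against distance from the start site in kb in the direction of transcription, with the gene as a black bar and the 2500 bp window shaded. Suz12 and H3K4me3 lie on the start site or within 2500 bp of it in most genes. At Wnt8b the H3K4me3 and Suz12 peaks lie towards the end of the gene, and Wnt3, Wnt3a, Wnt10a and Wnt10b carry further marked regions inside the gene.

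Wnt3, needed for gastrulation, and Wnt2b, which acts in eye and lung development, carried all 3 marks in both cultures, a state shared with 618 of all genes (2.4%). At the start site of Wnt3 (gene at chr11:103774175-103818021, plus strand), H3K4me3 covered 1852 bases in LIF-ESCs but 3393 in Myc-ESCs, a difference larger than that of 98.6% of the genes with 1 start site and H3K4me3 in both cultures. Suz12 covered 3198 and 3380 bases, and H3K27me3 340 and 320. Wnt3 thus differed in H3K4me3 breadth, while its Polycomb marks at the start site were much alike. Inside the gene, H3K27me3 had 3 peaks in LIF-ESCs against 15 in Myc-ESCs, from full lists of 3120 and 16717 peaks. Of the 15, 12 lay between 32681 and 38819 bp downstream, across introns 1 to 4. The same stretch held Suz12 in both cultures, with main peaks at 36252 to 37935 bp in LIF-ESCs and 36310 to 38401 bp in Myc-ESCs. An H3K4me3 peak from 34687 to 37774 bp was present there in Myc-ESCs and not in LIF-ESCs.

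At Wnt2b (chr3:104944805-104961709, minus strand), H3K4me3 covered 2445 and 2717 bases, and Suz12 1229 and 2492 bases in LIF-ESCs and Myc-ESCs. The 5 LIF-ESC Suz12 peaks were narrow, at 186 to 385 bp, and the strongest of them ranked above 65.1% of its list. In Myc-ESCs there were 3 peaks, of which the longest had 1495 bp and ranked above 87.5%. H3K27me3 was 1 peak in each culture, of 180 and 162 bp, and these lay on opposite sides of the start site, 435 bp downstream in LIF-ESCs and 1140 bp upstream in Myc-ESCs. Neither was kept with a score of at least 100.

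Wnt3a, a ligand widely used to activate the pathway, Wnt2, which acts in lung and placenta, and Wnt10a, which acts in tooth and hair, carried H3K4me3 and Suz12 in both cultures and H3K27me3 in Myc-ESCs only. This state was shared by 1215 of all genes (4.72%). Wnt3a (chr11:59248036-59290751, minus strand) had the most H3K27me3 at its start site of the 9 genes, with 0 bases in LIF-ESCs and 1154 in 5 peaks in Myc-ESCs. Its nearest LIF-ESC H3K27me3 peak lay 154124 bp away. The strongest Myc-ESC peak ran from 1585 to 1100 bp upstream and ranked above 91.8% of its list, and 2 of the 5 peaks were kept in the list of equal length. Suz12 covered 2187 and 2768 bases there, and H3K4me3 2869 and 3272. A second region in intron 2, within 25319 to 27425 bp downstream, held H3K4me3 and Suz12 in both cultures. A weak H3K4me3 peak over exon 4, from 40444 to 41954 bp downstream, was listed in LIF-ESCs and not in Myc-ESCs, and 12.1% of its list scored lower.

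Wnt2 (chr6:17985474-18032772, minus strand) had the largest H3K4me3 difference among the ligand genes with the mark in both cultures. Coverage was 1292 bases in LIF-ESCs and 3716 in Myc-ESCs, a difference larger than that of 99.8% of the genes with the mark in both cultures. The LIF-ESC peak ranked above 6.91% of its list and the Myc-ESC peak above 50.8%. The peak began 718 bp upstream in LIF-ESCs and 2474 bp upstream in Myc-ESCs, so that 1756 of the added bases lay upstream and 668 downstream, in intron 1. The 3 H3K27me3 peaks of Myc-ESCs were all upstream, between 1838 and 2586 bp from the start site, and 2 of them lay under Suz12. Suz12 covered 1517 bases in 5 peaks in LIF-ESCs and 2433 in 3 peaks in Myc-ESCs. The annotated gene record begins 2327 bp upstream of the curated transcript, so part of this upstream region counts as gene body.

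Wnt10a (chr1:74792019-74804176, plus strand) differed most in Suz12. Its start site had 406 covered bases in LIF-ESCs against 3482 in Myc-ESCs, a difference larger than that of 99.0% of the 2180 genes with 1 start site and Suz12 in both cultures. The strongest Suz12 peak ranked above 51.5% of the LIF-ESC list and above 88.7% of the Myc-ESC list. With a score of at least 100, Suz12 was absent in LIF-ESCs and covered 3482 bases in Myc-ESCs. Over the joined domain, which ended 16232 and 16345 bp past the start site, Suz12 covered 2145 of 16833 bp in LIF-ESCs and 9577 of 17413 bp in Myc-ESCs. H3K27me3 followed the same outline, with 0 body peaks in LIF-ESCs against 7 in Myc-ESCs in the full lists of unequal length. These 7 lay in intron 3 and over the end of the gene. H3K4me3 had 4 peaks in each culture at overlapping positions, with 3008 and 3406 bases at the start site.

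Wnt8a, known from patterning of the early embryo, and Wnt8b, known from the forebrain, stood apart from the other 7. The Wnt8a start site (chromosome 18) had H3K4me3 alone, with 1722 bases in LIF-ESCs and 2864 in Myc-ESCs, a state shared by 11765 of all genes (45.7%). The difference was larger than that of 96.8% of genes with the mark in both cultures, and the peak ranked above 18.3% and 47.8% of its list. Polycomb marks over the Wnt8a body were limited to 1 H3K27me3 peak in Myc-ESCs (score 63.2) and 1 Suz12 peak in LIF-ESCs (score 64.3), and the nearest Suz12 peak of Myc-ESCs lay 319174 bp away.

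The Wnt8b start site had no peak in any list, like that of 8791 of all genes (34.1%). The gene (chr19:44493472-44514273, plus strand) was nevertheless marked near its end. H3K4me3 ran from 17171 to 19336 bp downstream in LIF-ESCs and from 17016 to 19525 bp in Myc-ESCs, over exons 5 and 6. The main Suz12 peak ran from 17618 to 19414 bp in LIF-ESCs and from 17494 to 20175 bp in Myc-ESCs, and ranked above 93.7% and 96.0% of its list, within the range of the start-site peaks of Wnt1, Wnt3, Wnt3a and Wnt10b. In the full lists of unequal length, H3K27me3 was 1 peak of 140 bp in LIF-ESCs, 10971 bp downstream. In Myc-ESCs it was 6 peaks between 15377 and 20865 bp, of which 5 overlapped Suz12. The GENCODE annotation lists a processed transcript of Wnt8b that starts 16849 bp downstream of the RefSeq start site. The H3K4me3 peaks and the main Suz12 peaks reached within 2500 bp of that start. Of the H3K27me3 peaks, 3 of the 6 in Myc-ESCs did so, and the LIF-ESC peak did not. With GENCODE start sites, a choice made after seeing the data, Wnt8b counted as marked by H3K4me3 and Suz12 in both cultures and by H3K27me3 in Myc-ESCs only. The CpG-poor promoter printed above belongs to the unmarked RefSeq start site.

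**Figure D4:**
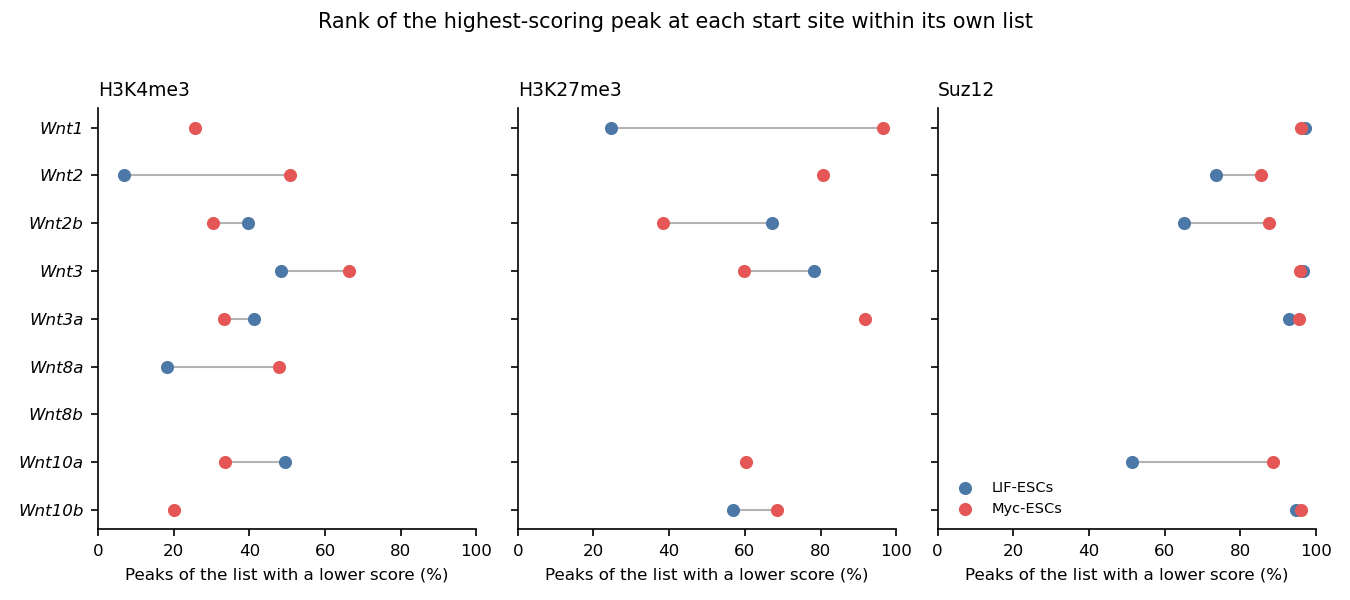
Share of the peaks of a list that score lower than the highest-scoring peak at each start site (percent, horizontal axes), by antibody (panels), with blue points for LIF-ESCs and red for Myc-ESCs joined by a line where both exist. Suz12 at Wnt1, Wnt3, Wnt3a and Wnt10b ranked between 93.0% and 97.2% in both cultures, whereas the H3K4me3 peaks of the ligand genes lay at 66.2% or lower.

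Ranked within their lists, Suz12 peaks of the ligand genes fell into a high set and a lower set. Wnt1, Wnt3, Wnt3a and Wnt10b ranked above 93.0 to 97.2% of the list in both cultures. Wnt2, Wnt2b and Wnt10a ranked above 51.5 to 73.5% in LIF-ESCs and above 85.6 to 88.7% in Myc-ESCs. The ranks come from lists of unequal length, and those of the first set were already near the upper end in LIF-ESCs, so differences in rank were not compared between the sets. In bases, Suz12 coverage in Myc-ESCs exceeded that in LIF-ESCs by 3076 at Wnt10a, 1670 at Wnt10b and 1263 at Wnt2b, and by 157 to 916 at the other four.

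By pattern over the bases covered by the 6 lists at the start site, the gene most like Wnt1 was Nkx2-1, at a Euclidean distance of 498 bases. For Wnt2 it was Shisa6 (482 bases), for Wnt2b Phlda2 (314), for Wnt3 Paupar (547), for Wnt3a Kcnj2 (462) and for Wnt10a Usp3 (770). Wnt8a was closest to Gm46840 (54.2 bases), and 8790 genes had the same empty pattern as Wnt8b. The distance was larger for Wnt10a than for Wnt1, Wnt2, Wnt2b, Wnt3, Wnt3a and Wnt8a.

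Besides Wnt1 and Wnt10b, 3 ligand genes lay within 50000 bp of another Wnt gene. Wnt3 lay 24354 bp from Wnt9b, Wnt3a 16179 bp from Wnt9a and Wnt10a 20127 bp from Wnt6, measured between start sites. In LIF-ESCs and Myc-ESCs, Suz12 covered 13.4% and 14.7% of the stretch between Wnt3 and Wnt9b, and 4.23% and 6.13% between Wnt3a and Wnt9a. Between Wnt10a and Wnt6 it covered 5.63% and 21.0%. This stretch also took in Suz12 near the Wnt6 start site, where its highest-scoring Myc-ESC peak lay (score 1354.74). Within 2500 bp upstream of Wnt10a, Suz12 was a peak of 155 bp in LIF-ESCs. In Myc-ESCs a peak there began 1067 bp upstream and ran past the start site. In the full lists of unequal length, H3K27me3 was absent between Wnt3a and Wnt9a and between Wnt10a and Wnt6 in LIF-ESCs. It held 5 and 4 peaks there in Myc-ESCs. H3K4me3 went the other way between Wnt10a and Wnt6, covering 47.2% in LIF-ESCs and 37.3% in Myc-ESCs.

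The other 10 Wnt ligand genes are given for comparison, with no test. In LIF-ESCs and Myc-ESCs, H3K4me3 was at 10 of 10 and 10 of 10, H3K27me3 at 3 and 9, and Suz12 at 9 and 10. H3K27me3 was found in Myc-ESCs only at 6 of them, namely Wnt5a, Wnt5b, Wnt6, Wnt7a, Wnt9a and Wnt16. Wnt5b had Suz12 in Myc-ESCs only, with 0 and 1225 bases, and Wnt4 was the 1 of 10 without H3K27me3 in Myc-ESCs. Of the 19 Wnt ligand genes, those without Polycomb marks at a RefSeq start site in Myc-ESCs were Wnt8a and Wnt8b, both canonical ligands.

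Receptor, antagonist, effector and target genes of the pathway are given beside the ligands. Among 10 Frizzled receptor genes, H3K27me3 was at 2 and 6 in the same order of cultures, and Suz12 at 8 and 9. Among 12 secreted antagonists, such as the Dkk and Sfrp families, H3K27me3 was at 2 and 5 and Suz12 at 6 and 7. Among 10 Wnt target genes, such as T and Lgr5, H3K27me3 was at 3 and 6 and Suz12 at 7 and 8. Suz12 calls differed in both directions in 2 of these lists. Suz12 was in Myc-ESCs only at 2 Frizzled and 3 target genes (3.83% of all genes). It was in LIF-ESCs only at 1 Frizzled gene and 2 target genes (1.29% of all genes). The co-receptors Lrp5 and Lrp6 carried H3K4me3 alone in both cultures, and of 5 nuclear effectors, H3K27me3 was at 0 and 1 and Suz12 at 2 and 2. For ligand secretion, Wls carried Suz12 in both cultures and H3K27me3 in Myc-ESCs, while Porcn carried H3K4me3 alone. Some genes stood in more than 1 of the lists compared, so the counts are not separate from each other. These counts are side by side, and no test was made of a difference between lists.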

How the data were processed

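H3K4me3, H3K27me3 and Suz12 were mapped by ChIP-sequencing in LIF-ESCs and Myc-ESCs. Per the labels and the study's methods, the authors used Bowtie2 2.2.3 to align HiSeq2000 reads to GRCm38, retained uniquely placed reads, and ran MACS 1.4.2 with its defaults to call peaks. The deposited score of each peak was made by the authors with MACS and grows as the p-value of the peak falls, on a log10 scale. Since it depends on depth, it served only for ranks and limits inside a list. Whether libraries were pooled is not stated, and depth is not known.

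Peaks were read with Python 3.11.15, pandas 2.3.3 and numpy 2.4.6, and sequence with pysam 0.24.0. Start sites came from 45302 curated RefSeq transcripts (GRCm38.p6), and a peak sharing at least 1 bp with the region within 2500 bp of such a site marked the gene. Coordinates count from 1. Bodies ran from the first to the last annotated base. Interval code was tested on simulated data. All 9 ligand genes were named, with neighbouring Wnt genes within 50000 bp, other Wnt ligands that differed between the cultures, and for each ligand gene the symbol nearest by Euclidean distance over 6 coverage values. That symbol is not reported here for Wnt10b. Some other pathway and marker genes were named only as examples of their list, after their values were seen. The ligand genes and gene lists were chosen with earlier results of these data known. Expression and inputs were not analysed here.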

Additional observations from a re-analysis of the deposited data

How the results depend on the processing

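Of 133 counts of the 9 ligand genes under alternatives, 113 were within 1.5 times the value reported and 20 were not. With a score of at least 100, H3K27me3 was at 0 genes (LIF-ESCs) and 3 genes (Myc-ESCs), all 3 marks at 0 and 3, H3K4me3 in Myc-ESCs only at 4, Suz12 in Myc-ESCs only at 1, and more H3K27me3 bases in Myc-ESCs at 3. With lists of equal length, H3K27me3 was at 2 genes in Myc-ESCs, at 1 in Myc-ESCs only and at 3 in LIF-ESCs only, all 3 marks at 2 in Myc-ESCs, and more H3K27me3 bases at 2. Within 1000 bp, H3K27me3 in LIF-ESCs only was at 1 gene. H3K4me3 in Myc-ESCs only was at 1 gene within 5000 bp, by the middle of the peak and over gene bodies. Over bodies, H3K27me3 and Suz12 in LIF-ESCs only were at 1 gene each, all 3 marks in LIF-ESCs at 4, and more H3K27me3 bases in Myc-ESCs at 8. By culture, LIF-ESCs first, bodies with H3K27me3 numbered 5 and 8 (4.07% and 11.2% of all genes). Those with Suz12 numbered 9 and 8 (12.5% and 15.3%), and those with H3K4me3 8 and 9 (65.4% and 66.5%). The counts under the score limit and the other windows were not set beside all genes. Whether those shifts are particular to the ligand genes was not tested. The settings themselves use fewer peaks or another region, and no further cause was tested. The GENCODE start sites and all counts of genes with more bases were chosen after seeing the data. No paired analysis was possible because there was 1 list for each culture and antibody, and for the same reason no replicate could be left out. Depth limits every statement about a missing peak.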
